A study of Mus musculus with 8 samples.

Results

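The genes described here are 10 glutathione S-transferase genes of mouse soleus muscle: Gstk1 of the kappa class, Gstm1, Gstm2, Gstm4, Gstm5 and Gstm7 of the mu class, Gsta4 (alpha), Gstp1 (pi), Gstt1 (theta) and Gsto1 (omega). They were found by symbol, and all 10 were present among the 24033 genes of the deposited table. The list was drawn up with the values of the genotype comparison known, so the differences between the genotypes are given for these genes as a description and without a p-value. Soleus, a postural calf muscle with many slow fibres, was taken at 2 months of age from K15-SKO and MyoCre mice, and RNA of 4 samples of each genotype was sequenced in 1 library a sample. The K15-SKO genotype is Myogenin-Cre/+;K15F/F, in which 2 floxed Klf15 alleles are paired with 1 copy of a Cre recombinase driven by the myogenin promoter of skeletal muscle. The MyoCre genotype is Myogenin-Cre/+, which carries the same Cre without the floxed alleles, and no group without Cre was analysed here. Cre is not expected in the vessels, connective tissue, nerve and blood cells that a whole muscle also holds. The question is which transcripts depend on muscle KLF15, a Kruppel-like transcription factor of amino acid and lipid metabolism.

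Glutathione S-transferases join the tripeptide glutathione to reactive electrophiles, such as lipid peroxidation products and drug metabolites, which makes these more soluble and ready for export. The alpha, mu, pi, theta and omega classes are cytosolic enzymes of 1 protein superfamily. The kappa enzyme lies in mitochondria and peroxisomes, and its fold resembles bacterial disulfide oxidoreductases more than the cytosolic classes. Many transferase genes are known targets of NRF2, the transcription factor that answers oxidative and electrophilic stress through antioxidant response elements.

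The promoters are shown because members of this family that stood far apart in the genotype comparison can be set side by side in sequence. RefSeq windows of build GRCm38.p6, which run from 250 bases before to 50 bases after an annotated start, matched 9 of the 10 genes in 12 windows. Gsta4 had no entry. Each window was searched on both strands for TGACNNNGC, the core of the antioxidant response element, and for CACCC, the box that Kruppel-like factors are known to bind. These are 5 of the windows, each picked with a match in it, 5′ to 3′ along the gene, with the matches in capitals.
Gstm7, chr3:107931565-107931864, minus strand: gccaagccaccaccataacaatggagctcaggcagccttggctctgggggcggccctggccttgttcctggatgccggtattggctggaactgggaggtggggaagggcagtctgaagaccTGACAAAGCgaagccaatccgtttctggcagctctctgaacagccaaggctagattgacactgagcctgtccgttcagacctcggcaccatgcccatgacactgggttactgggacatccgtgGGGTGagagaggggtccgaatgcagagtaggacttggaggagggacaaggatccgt
Gstk1, chr6:42245685-42245984, plus strand: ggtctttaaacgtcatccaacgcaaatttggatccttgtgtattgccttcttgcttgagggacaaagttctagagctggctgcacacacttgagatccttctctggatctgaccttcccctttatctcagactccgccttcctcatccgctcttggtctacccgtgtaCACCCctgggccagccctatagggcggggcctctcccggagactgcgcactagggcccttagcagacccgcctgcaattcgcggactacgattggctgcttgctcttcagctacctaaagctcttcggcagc
Gstm1, chr3:108017924-108018223, minus strand: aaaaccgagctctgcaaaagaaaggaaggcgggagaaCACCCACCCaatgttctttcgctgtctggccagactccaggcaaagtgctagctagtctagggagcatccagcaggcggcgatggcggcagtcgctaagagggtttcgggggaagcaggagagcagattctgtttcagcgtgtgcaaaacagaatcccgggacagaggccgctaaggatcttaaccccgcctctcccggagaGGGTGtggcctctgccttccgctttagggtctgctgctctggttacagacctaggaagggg
Gstm5, chr3:107895604-107895903, plus strand: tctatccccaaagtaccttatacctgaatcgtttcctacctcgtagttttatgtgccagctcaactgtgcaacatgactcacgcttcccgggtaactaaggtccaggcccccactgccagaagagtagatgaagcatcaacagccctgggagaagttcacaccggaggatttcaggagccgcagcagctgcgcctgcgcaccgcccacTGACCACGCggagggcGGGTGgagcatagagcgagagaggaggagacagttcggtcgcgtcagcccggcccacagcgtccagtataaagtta
Gsto1, chr19:47854723-47855022, plus strand: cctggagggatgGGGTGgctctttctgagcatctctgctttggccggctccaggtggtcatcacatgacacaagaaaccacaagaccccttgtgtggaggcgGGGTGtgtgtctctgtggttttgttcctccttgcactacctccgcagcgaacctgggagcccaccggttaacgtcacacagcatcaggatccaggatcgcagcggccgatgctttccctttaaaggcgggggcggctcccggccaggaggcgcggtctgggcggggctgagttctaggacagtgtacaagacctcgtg
The core TGACNNNGC was found in 2 of the 12 windows, 1 of Gstm7 and that of Gstm5, against 12.4% of all 32851 promoter windows. CACCC or its complement was found in 8 of the 12 windows, which belong to 7 genes, against 57.5% of all windows. In Gstm7 the match to TGACNNNGC begins at position -129 and in Gstm5 at -42, counted from an annotated start at 1 with no 0. The other window of Gstm7, from 107931768 to 107932067, held neither motif. That window spans the outermost annotated 5′ end of the gene, at 107931817. The printed Gstm7 window belongs to a start further inside the gene, and its TGACNNNGC match lies within the gene. Gstk1 held 1 CACCC match, which begins at -82. Gsto1 held 2 CACCC matches, and no match of either kind was found for Gstm2 or Gstt1. The window of Gstt1, from 75797682 to 75797981, does not reach the outermost annotated 5′ end of that gene, at 75798584. The other window of Gstm1, not printed, held 1 CACCC match. A match is a match of letters and says nothing about binding in these samples.

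The libraries were checked first. Klf15 itself had 15.7, 19.3, 16.7 and 13.1 FPKM in K15-SKO replicates 1 to 4, against 44.5, 49.8, 49.1 and 22.8 FPKM in MyoCre replicates 1 to 4. The log2 fold change was -1.28 (limma adjusted p = 0.0943), with no overlap, and the labels do not say which part of the gene is floxed. FPKM is the number of fragments of a gene scaled to transcript length and library size, so levels can be compared between genes. The slow myosin gene Myh7 had at least 669.2 FPKM in every library. The depth, estimated from the step of the lowest values, was 7760000 to 22100000 fragments a library, with MyoCre replicate 2 the deepest. MyoCre replicate 2 is also the 1 male library, with 23.03 FPKM of the Y-linked Ddx3y against 0 in the other 7 libraries. K15-SKO replicate 3 stood apart in scale, with a median-of-ratios factor of 0.797 against 0.955 to 1.16 in the others. Over the 12376 tested genes the median log2 fold change was -0.12; with median-of-ratios scaling it was 0.00043. A log2 fold change here is the mean difference of log2(FPKM + 0.5), K15-SKO over MyoCre, with the moderated standard error (SE) of limma, and it understates changes of low genes.

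In K15-SKO muscle the transferase genes did not move as a block. Gstm7 and Gstk1 were the lowest relative to MyoCre, at 19.4% and 37.0% of its mean level, followed by Gstm2 (46.5%) and Gstm1 (54.9%). Gsta4 (74.3%) and Gstm5 (75.3%) stood between, and Gstp1 (93.2%), Gstt1 (99.97%), Gstm4 (100.1%) and Gsto1 (107.5%) lay near the MyoCre level. Of the 10 genes, 9 had a negative log2 fold change, of which Gstm4, Gstp1 and Gstt1 turned positive with median-of-ratios scaling. Against the all-gene median, 6 were lower. In the limma fit over all genes, Gstm7 and Gstk1 were past adjusted p 0.05 and lower, where 0.097% of all tested genes were called lower, and 0 of all genes were called higher (limma, 68 at unadjusted p under 0.05). At unadjusted p under 0.05, 5 of the 10 were lower, where 3.5% of all tested genes were, and 0 were higher, where 0.549% were. The K15-SKO values were all below the MyoCre values for Gstk1, Gstm1, Gstm5 and Gstm7, or 4 of 10, where 2.76% of all tested genes did so. They were all above for 0 of 10, where 0.259% did so. The call of Gstk1 ended without K15-SKO replicate 1, and both calls ended without K15-SKO replicate 3, without MyoCre replicate 1 or without MyoCre replicate 3, while the log2 fold changes stayed at -1.72 or lower for Gstm7 and at -1.25 or lower for Gstk1. These counts restate the comparison the genes were chosen from.

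**Figure D1:**
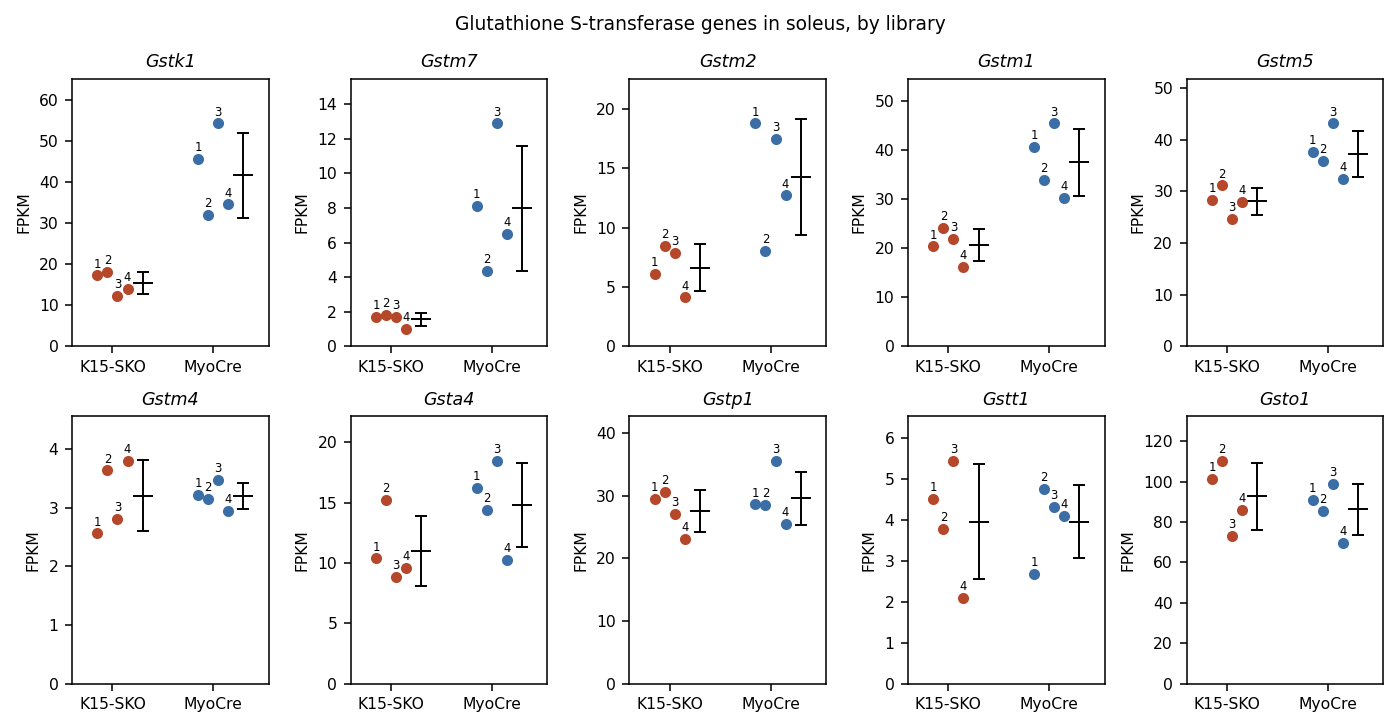
FPKM of the 10 transferase genes in each library (points, replicates 1 to 4 from left to right), K15-SKO left and MyoCre right, with the mean and SD of 4 libraries as a bar; each panel has its own axis from 0. The points of the 2 genotypes do not overlap for Gstk1, Gstm7, Gstm1 and Gstm5, and overlap for the other 6 genes.

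Gstk1, the kappa enzyme of mitochondria and peroxisomes, had 17.2, 18.1, 12.2 and 14.0 FPKM in K15-SKO replicates 1 to 4, against 45.6, 32.0, 54.3 and 34.5 FPKM in MyoCre replicates 1 to 4. The highest K15-SKO library lay well under the lowest MyoCre library, the male replicate 2. The means were 15.4 ± 2.77 FPKM in K15-SKO and 41.6 ± 10.3 FPKM in MyoCre muscle (SD, n = 4 each), a log2 fold change of -1.39 (SE 0.21), or -1.27 relative to the median of all genes. In MyoCre muscle Gstk1 was second in level among the 10 genes, with a range that overlapped those of Gstm1, Gstm5 and Gstp1. In K15-SKO muscle it had rank 5, below Gsto1, Gstm5, Gstp1 and Gstm1, with a range that overlapped those of Gstm1 and Gsta4.

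Gstm7, a mu-class enzyme, had 1.69, 1.81, 1.71 and 0.989 FPKM in K15-SKO replicates 1 to 4, against 8.14, 4.38, 12.9 and 6.52 FPKM in MyoCre replicates 1 to 4. The genotypes did not overlap, although the MyoCre libraries differed widely among themselves. The means were 1.548 ± 0.38 FPKM in K15-SKO and 7.98 ± 3.62 FPKM in MyoCre muscle (SD, n = 4 each), a log2 fold change of -1.98 (SE 0.27). The K15-SKO values rest on few fragments. With the longest annotated transcript as length, they correspond to about 22, 23, 31 and 11 fragments, against about 98, 133, 144 and 94 in the MyoCre libraries. Gstm7 had the lowest level of the 10 genes in K15-SKO muscle, and in MyoCre muscle the means of Gstt1 and Gstm4 lay below it. Its MyoCre range overlapped those of Gstt1, Gstm2 and Gsta4.

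Gstm1, the major mu-class form of mouse liver, had 20.4, 24.1, 21.9 and 16.2 FPKM in K15-SKO replicates 1 to 4, against 40.7, 33.8, 45.4 and 30.2 FPKM in MyoCre replicates 1 to 4. The groups did not overlap, and the log2 fold change was -0.85 (SE 0.19). Gstm2, whose human counterpart is known as the muscle form of the class, had 6.10, 8.48, 7.86 and 4.12 FPKM in K15-SKO replicates 1 to 4, against 18.8, 8.08, 17.5 and 12.7 FPKM in MyoCre replicates 1 to 4. Here the male MyoCre replicate 2 lay inside the K15-SKO range and the other 3 MyoCre libraries lay above it. The log2 fold change of Gstm2 was -1.03 (SE 0.28). Gstm5 had 28.4, 31.2, 24.7 and 28.0 FPKM in K15-SKO replicates 1 to 4, against 37.6, 36.0, 43.2 and 32.5 FPKM in MyoCre replicates 1 to 4. Its groups did not overlap but lay close, with a log2 fold change of -0.40 (SE 0.17), or -0.28 relative to the median of all genes. Gstm4 had 2.56, 3.64, 2.82 and 3.80 FPKM in K15-SKO replicates 1 to 4, against 3.22, 3.16, 3.48 and 2.95 FPKM in MyoCre replicates 1 to 4. Its MyoCre values lay inside the K15-SKO range (log2 fold change -0.01, SE 0.18), and the sign turned to 0.11 with median-of-ratios scaling and with quantile normalization.

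The mu genes lie side by side on chromosome 3, from 107895821 to 108044894 in mm10, a stretch of 149.1 kb in the order Gstm5, Gstm7, Gstm6, Gstm3, Gstm2, Gstm1, Gstm4. Gstm5 is on the plus strand and the rest on the minus strand. In map order the tested minus-strand genes Gstm7, Gstm2, Gstm1 and Gstm4 stood at 19.4%, 46.5%, 54.9% and 100.1% of the MyoCre level. Gstm5, before them on the plus strand, stood at 75.3% and breaks this rise. A link with position was not tested. Gstm7 and Gstm5 are direct neighbours and stood at 19.4% and 75.3% of the MyoCre level, and Gstm1 and Gstm4, at the far end, at 54.9% and 100.1%. Gstm6 did not exceed 0.452 FPKM and Gstm3 did not exceed 0.0843 FPKM in any library, so neither was tested. The 8 nearest tested genes around the cluster, 4 on each side, had log2 fold changes from -0.49 (Csf1) to 0.06 (Cyb561d1), and none passed the limma threshold (lowest adjusted p = 0.963). Csf1, the macrophage growth factor gene, lay further from 0 than Gstm5, and its K15-SKO values were likewise all below its MyoCre values. Gstk1 is found on chromosome 6, plus strand, from 42245935 to 42250447. Gsta4 is on chromosome 9 (78182774 to 78209349), Gstt1 on chromosome 10 (75783813 to 75798584), and Gstp1 and Gsto1 far apart on chromosome 19 (from 4035407 and from 47854970). The nearest tested neighbours of Gstk1 on its downstream side, Casp2 and the muscle chloride channel gene Clcn1, had log2 fold changes of 0.02 (SE 0.17, limma adjusted p = 0.991) and -0.01 (SE 0.20, limma adjusted p = 0.998).

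**Figure D2:**
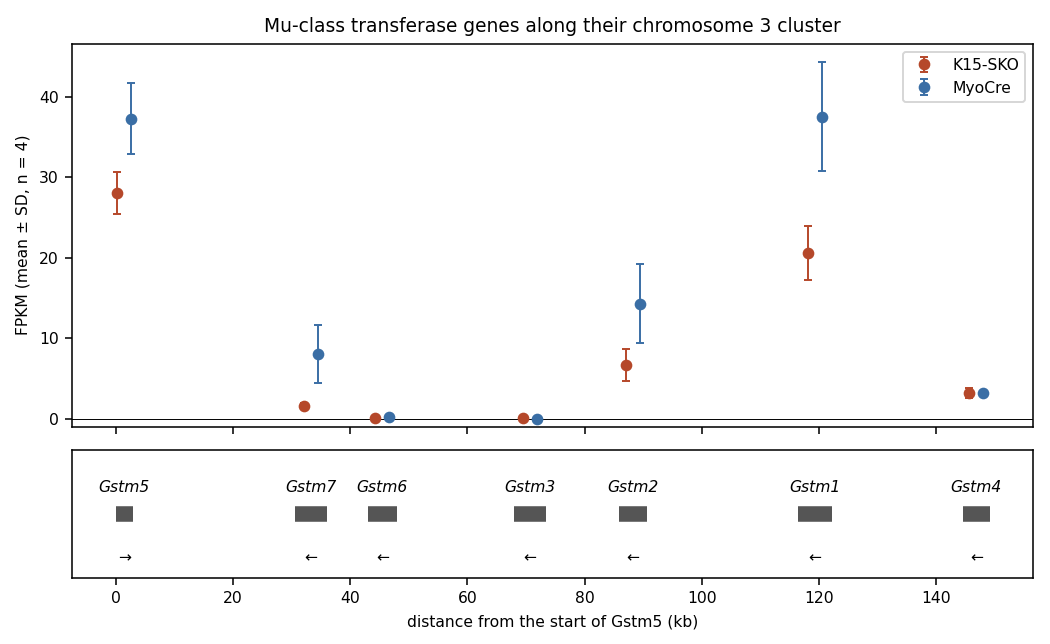
Upper panel: mean FPKM ± SD (n = 4) of the 7 mu-class genes, K15-SKO and MyoCre, against distance in kb from the start of Gstm5; lower panel: the genes to scale, with arrows for the strand. The gap between the genotypes is widest for Gstm1, Gstm2, Gstm5 and Gstm7, the points of Gstm4 coincide, and Gstm6 and Gstm3 lie near 0.

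Of the remaining classes, Gsta4 lay as far from the MyoCre level as Gstm5 did, and Gstp1, Gstt1 and Gsto1 lay near it. Gsta4, the alpha-class enzyme known for conjugating the lipid peroxidation product hydroxynonenal, had 10.4, 15.2, 8.82 and 9.60 FPKM in K15-SKO replicates 1 to 4, against 16.2, 14.4, 18.5 and 10.2 FPKM in MyoCre replicates 1 to 4. K15-SKO replicate 2 lay above MyoCre replicates 2 and 4, and the log2 fold change was -0.41 (SE 0.22). Gstp1, the pi-class enzyme, had 29.5, 30.6, 27.1 and 23.0 FPKM in K15-SKO replicates 1 to 4, against 28.6, 28.5, 35.5 and 25.5 FPKM in MyoCre replicates 1 to 4. These ranges largely coincide (log2 fold change -0.10, SE 0.18, and 0.04 with median-of-ratios scaling). Gstt1, the theta-class enzyme that acts on small halogenated compounds, had 4.51, 3.78, 5.44 and 2.10 FPKM in K15-SKO replicates 1 to 4, against 2.68, 4.75, 4.32 and 4.09 FPKM in MyoCre replicates 1 to 4. The K15-SKO range enclosed every MyoCre value (log2 fold change -0.04, SE 0.25, and 0.09 with median-of-ratios scaling). Gsto1, the omega-class enzyme with thioltransferase and dehydroascorbate reductase activity, had 101.5, 110.3, 73.1 and 86.1 FPKM in K15-SKO replicates 1 to 4, against 90.9, 85.6, 99.03 and 69.5 FPKM in MyoCre replicates 1 to 4. The groups overlapped as deposited (log2 fold change 0.10, SE 0.19). After median-of-ratios scaling they did not, with 90.1 to 103.5 FPKM in K15-SKO and 71.3 to 88.8 FPKM in MyoCre libraries. The scaled log2 fold change of Gsto1 was 0.24 (SE 0.12), not past the limma threshold. How many of all genes separate upward after this scaling was not counted.

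Gsto1 had the highest level of the 10 genes in both genotypes, and no range of another gene reached it. It made up 43.9% ± 3.03 of the summed FPKM of the 10 genes in K15-SKO and 31.3% ± 1.98 in MyoCre muscle (SD, n = 4 each). Gstk1 made up 7.28% ± 0.51 in K15-SKO and 14.9% ± 1.51 in MyoCre muscle. The share of Gstm5 was 13.4% ± 1.05 in K15-SKO and 13.6% ± 0.80 in MyoCre muscle, less apart than the spread between libraries. A share moves with the sum as well as with the gene. The mean level of Gsto1 itself was 107.5% of MyoCre, that of Gstm5 75.3% and the sum of the 10 genes 76.2%. The sum over the 10 genes was 210.7 ± 29.5 FPKM in K15-SKO and 276.6 ± 46.6 FPKM in MyoCre muscle, and the ranges overlapped, at 185.6 to 247.2 and 228.7 to 334.1 FPKM. The sum over the 5 mu genes was 60.1 ± 6.67 FPKM in K15-SKO and 100.3 ± 18.4 FPKM in MyoCre muscle, with ranges of 53.1 to 69.2 and 84.9 to 122.5 FPKM that did not overlap.

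**Figure D3:**
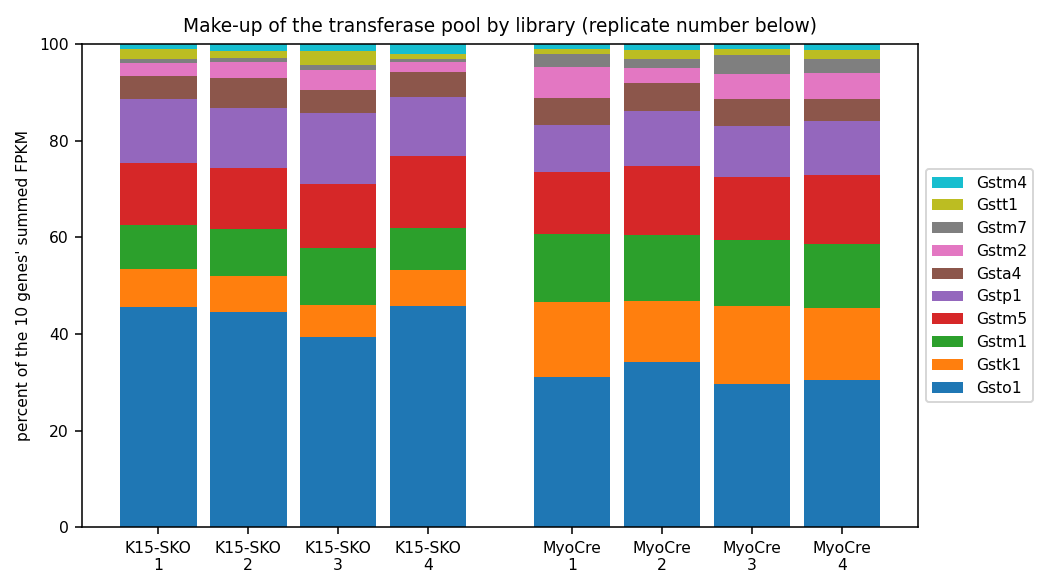
Share of each transferase gene in the summed FPKM of the 10 genes, in percent, for each library (K15-SKO left, MyoCre right). The Gsto1 block is 39.4% to 45.8% in K15-SKO and 29.6% to 34.1% in MyoCre libraries, and the Gstk1 block is narrower in every K15-SKO library than in any MyoCre library.

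Ratios of genes within 1 library do not depend on how libraries were scaled to each other. They do depend on both genes, and Gstm5 itself stood at 75.3% and Gsto1 at 107.5% of the MyoCre level. Gstm7 stood at 5.96%, 5.79%, 6.89% and 3.53% of its neighbour Gstm5 in K15-SKO replicates 1 to 4, against 21.6%, 12.2%, 29.9% and 20.1% in MyoCre replicates 1 to 4. These groups did not overlap. Gstk1 stood at 16.99%, 16.4%, 16.7% and 16.3% of Gsto1 in K15-SKO replicates 1 to 4, against 50.1%, 37.4%, 54.8% and 49.7% in MyoCre replicates 1 to 4. The K15-SKO libraries were close together here, replicate 3 included, with an SD of 0.30 percentage points, against 7.43 in MyoCre. As a percent of Gstp1 they were not, with 58.5%, 59.3%, 45.0% and 61.0% for Gstk1 in K15-SKO replicates 1 to 4. Replicate 3 lay apart there (SD 7.38), and the MyoCre libraries, at 112.3% to 159.5%, did not overlap. Gstm1 stood at 73.8% ± 12.7 of Gstm5 in K15-SKO and 100.1% ± 7.69 in MyoCre muscle, again without overlap. Gsta4 stood at 11.8% ± 1.54 of Gsto1 in K15-SKO and 17.0% ± 1.69 in MyoCre muscle, also without overlap. For Gstm2 over Gstm5, for Gstm4 over Gstm5 and for Gstp1 over Gsto1, the genotypes overlapped.

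**Figure D4:**
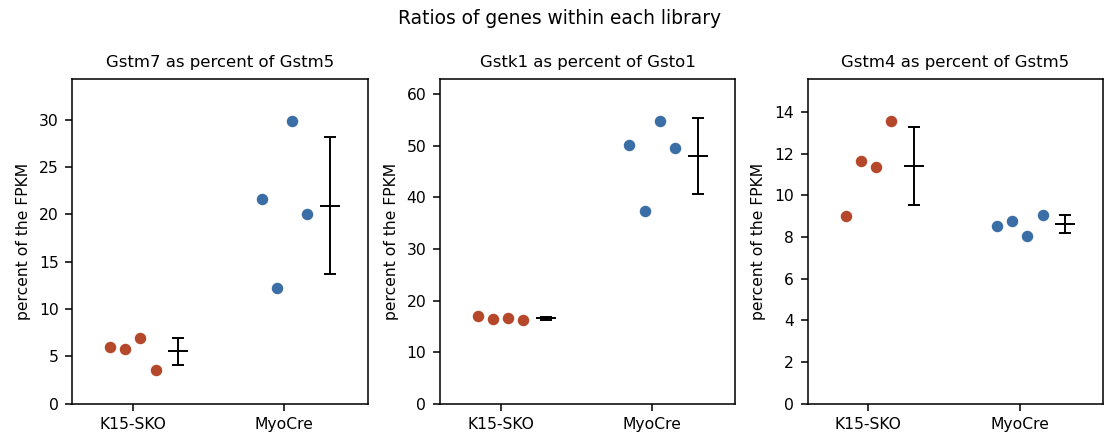
Level of 1 gene as a percent of another in the same library (points), K15-SKO left and MyoCre right, with mean and SD of 4 libraries. Gstm7 over Gstm5 and Gstk1 over Gsto1 are lower in every K15-SKO library than in any MyoCre library, and Gstm4 over Gstm5 is not.

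The libraries ranked alike for many members. MyoCre replicate 3 was the highest MyoCre library for 8 of the 10 genes and K15-SKO replicate 2 the highest K15-SKO library for 8 of 10. MyoCre replicate 4 was the lowest MyoCre library for 6 genes and K15-SKO replicate 4 the lowest K15-SKO library for 5. Within its genotype, the median-of-ratios factor was also largest in MyoCre replicate 3 (1.16) and in K15-SKO replicate 2 (1.07). It was smallest in MyoCre replicate 4 (0.974) and in K15-SKO replicate 3 (0.797). The same ranks over all genes were not counted. The male MyoCre replicate 2 was the lowest MyoCre library for Gstk1, Gstm2 and Gstm7. Without it the log2 fold changes of Gstk1, Gstm2 and Gstm7 were -1.50, -1.27 and -2.21.

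Reads from near-identical copies can be assigned to the wrong gene, so the transcripts were compared. None of the 50-base stretches of the annotated Gstk1, Gstm4, Gstm5, Gsta4, Gstt1 and Gsto1 transcripts occurred in a transcript of another gene, and 0.532% of those of Gstm7 did. For Gstm2 the share was 5.65%. For Gstm1 it was 18.9%, most often with Gstm2-ps1, a processed pseudogene on chromosome 5. For Gstp1 it was 33.7%, all of it with its neighbour Gstp2. Gstm1 and Gstp1 values are less certain for this reason, and the shares do not give the size of the error.

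The rest of the transferase family was tested in the same fit. The 10 described genes had been taken out with their values known, so the count among the rest is not independent of that choice. Of 29 further genes of transferase or related type in the table, 16 passed the filter on low values. None passed the threshold in either direction (limma, 1 lower and 0 higher at unadjusted p under 0.05), and their median log2 fold change was -0.11, against -0.12 for all genes. The 1 gene was Gstm2-ps1, with 5.08 ± 1.49 FPKM in K15-SKO and 8.996 ± 2.51 FPKM in MyoCre muscle (SD, n = 4 each; log2 fold change -0.77, limma adjusted p = 0.793). Of its 50-base stretches 35.4% occur in Gstm1 transcripts, so it is not an independent measurement. Mgst3, a microsomal glutathione transferase and the most abundant gene of the wider family, had 179.9 ± 7.91 FPKM in K15-SKO and 189.5 ± 31.7 FPKM in MyoCre muscle (limma adjusted p = 0.969). Mgst1, another microsomal form, had 35.1 ± 14.7 FPKM in K15-SKO and 52.7 ± 27.2 FPKM in MyoCre muscle (limma adjusted p = 0.963). Eef1g and Eef1e1, translation and synthetase complex proteins with a transferase-like domain, had log2 fold changes of -0.34 and -0.41, and the chloride channel family member Clic5 one of -0.27 (limma adjusted p = 0.963 for each).

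**Figure D5:**
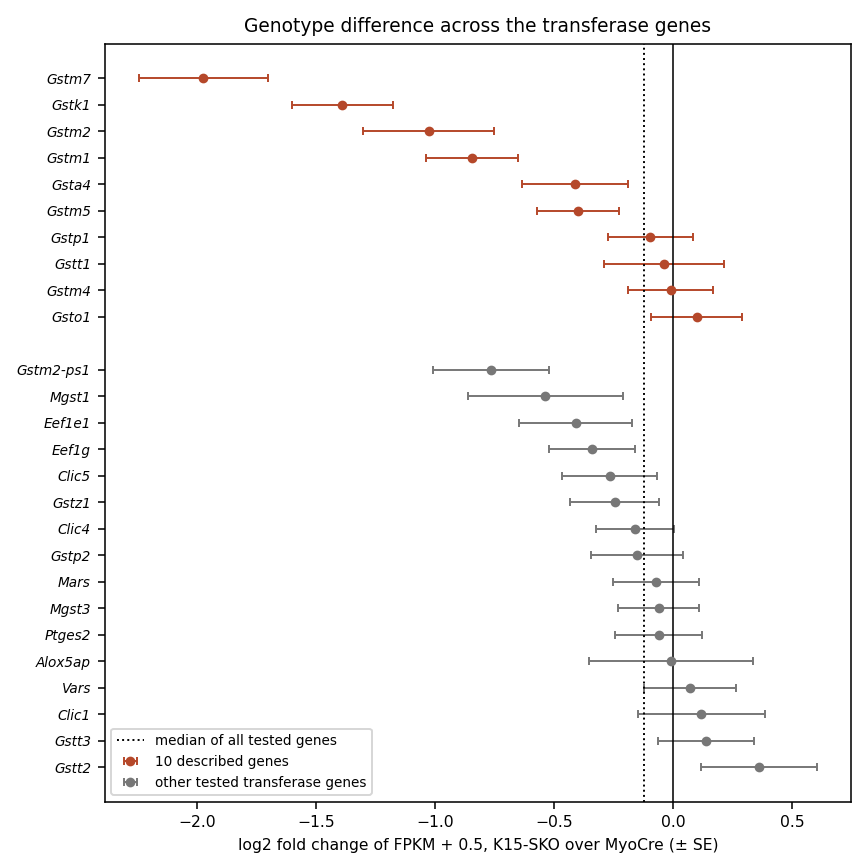
Log2 fold change of FPKM + 0.5, K15-SKO over MyoCre, with its SE, for the 10 transferase genes (top) and the 16 other tested genes of the wider family (bottom); the dotted line is the median of all tested genes, -0.12. Gstm7, Gstk1, Gstm2 and Gstm1 lie at -0.85 or lower, and the lowest of the other genes is Gstm2-ps1 at -0.77. The 10 genes were separated from the others with these values known.

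Genes that supply the transferases with glutathione were tested as a list of synthesis, recycling and breakdown genes. None of its 37 tested members passed (limma, 1 lower and 1 higher at unadjusted p under 0.05), with a median log2 fold change of -0.10. The catalytic subunit of glutamate-cysteine ligase, Gclc, which makes the first and limiting step of glutathione synthesis, had 4.81 ± 0.72 FPKM in K15-SKO and 4.91 ± 0.69 FPKM in MyoCre muscle (limma adjusted p = 0.99007). Glutathione reductase, Gsr, had 12.7 ± 1.71 FPKM in K15-SKO and 11.9 ± 0.66 FPKM in MyoCre muscle (limma adjusted p = 0.963). The smallest unadjusted p-values belonged to the extracellular transpeptidase gene Ggt5, Idh1, Glrx and Oplah, with log2 fold changes of 0.52, -0.51, -0.40 and -0.35 (limma adjusted p = 0.963 for each). The most abundant members, Idh2, Slc25a11 and Nnt, had log2 fold changes of 0.14, -0.16 and -0.29 (limma adjusted p = 0.963 for each). The dipeptidase gene Dpep1 was listed at 0 in all 4 MyoCre libraries and at 4.41 to 10.8 FPKM in the K15-SKO libraries. It was not tested, since a value of 0 in a whole genotype can be a failed estimate in this table.

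NRF2 target genes outside the transferase family gave the same count. None of 36 tested genes passed (limma, 1 lower and 0 higher at unadjusted p under 0.05), with a median log2 fold change of -0.06. Nqo1, a quinone reductase often used as a readout of NRF2, had 21.9 ± 8.44 FPKM in K15-SKO and 17.1 ± 2.68 FPKM in MyoCre muscle, and heme oxygenase, Hmox1, 4.05 ± 1.19 FPKM in K15-SKO and 3.88 ± 1.16 FPKM in MyoCre muscle. Their limma adjusted p-values were 0.963 and 0.980. Both were named after their values were seen. Nfe2l2, which encodes NRF2, had 18.8 ± 4.08 FPKM in K15-SKO and 21.6 ± 1.90 FPKM in MyoCre muscle (limma adjusted p = 0.963), and was likewise named after its value was seen. Ces1d, Txnrd1, Akr1b10 and Ephx1 had the smallest unadjusted p-values, with log2 fold changes of -0.68, -0.31, -0.30 and 0.31, and Fth1, Sqstm1 and Prdx1 the highest levels, with log2 fold changes of -0.08, 0.03 and -0.18. None of these passed (limma adjusted p = 0.963 to 0.99007).

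Transferases are also made by cells other than muscle fibres, and in whole muscle fewer cells of a type and less RNA per cell cannot be told apart. Summed marker levels overlapped between the genotypes for all 8 marker lists, and no list had a marker at 0 in every library. Because the median log2 fold change of all genes was -0.12, the markers below that median are counted beside the negative ones. Muscle fibre markers summed to 20214 to 36099 FPKM in K15-SKO and 19214 to 32501 FPKM in MyoCre libraries, with 11 of 14 log2 fold changes negative and 5 below the all-gene median. Endothelial and mural markers summed to 465.2 to 501.1 FPKM in K15-SKO and 412.5 to 490.2 FPKM in MyoCre libraries, with 6 of 16 negative and 2 below the median. Fat cell markers summed to 1841 to 2608 FPKM in K15-SKO and 1661 to 2191 FPKM in MyoCre libraries, although 8 of 10 tested markers were negative and 7 below the median. The listed fat gene Adipoq had only 1.60 to 7.14 FPKM over the 8 libraries (log2 fold change -0.58, limma adjusted p = 0.963). Other genes of the list carry this sum, so it need not follow fat cell content. Fibroblast and matrix markers summed to 473.6 to 839.2 FPKM in K15-SKO and 656.2 to 1119 FPKM in MyoCre libraries, with 12 of 12 negative and 10 below the median. Tendon markers summed to 123.4 to 239.5 FPKM in K15-SKO and 153.8 to 290.1 FPKM in MyoCre libraries, with 8 of 8 negative and 7 below the median. Macrophage and leukocyte markers summed to 46.2 to 109.3 FPKM in K15-SKO and 92.1 to 102.3 FPKM in MyoCre libraries, with 11 of 11 tested markers negative and all 11 below the median. Schwann cell markers summed to 48.2 to 64.5 FPKM in K15-SKO and 57.5 to 63.8 FPKM in MyoCre libraries, with 6 of 6 tested markers negative and 4 below the median. Erythroid markers summed to 320.6 to 2039 FPKM in K15-SKO and 284.1 to 459.1 FPKM in MyoCre libraries, with 0 of 5 tested markers negative. Of these, the beta globin gene Hbb-bs had 214.96, 365.3, 1265 and 226.9 FPKM in K15-SKO replicates 1 to 4, against 188.6, 290.1, 195.3 and 274.03 FPKM in MyoCre replicates 1 to 4. Alas2, of heme synthesis, had 4.12, 8.57, 24.2 and 4.49 FPKM in K15-SKO replicates 1 to 4, against 3.52, 6.87, 3.05 and 4.82 FPKM in MyoCre replicates 1 to 4. K15-SKO replicate 3 stood far above the other 7 libraries for both genes. The calls of Gstm7 and Gstk1 ended without it, and likewise without MyoCre replicate 1 or MyoCre replicate 3. A link was not tested. No marker of any list passed the limma threshold. Among the markers with the smallest unadjusted p in their lists were Kera (log2 fold change -1.12, limma adjusted p = 0.630), Plin1 (-0.65), Cdh5 (0.43), Col1a2 (-0.57), Mrc1 (-0.40), Alas2 (0.80) and Casq2 (0.26), each of the other 6 with limma adjusted p = 0.963. The part of these cell types in the transferase values was not tested.

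Genes with a pattern like that of Gstm7 and Gstk1 were ranked by the Pearson correlation of log2 values over the 8 libraries, among 7085 further genes whose mean reached 5 FPKM. Closest to Gstm7 were Selenbp1 (0.99), Ddt (0.98), Ivd (0.97), Pwp2 (0.96) and Pxmp2 (0.96). Closest to Gstk1 were Ivd (0.99), Gcdh (0.99), Pxmp2 (0.99), Mccc2 (0.98) and Oat (0.98). The points share their libraries and their scale and fall into the 2 genotypes, so a high value mostly records a like difference between the genotypes. Ivd and Pxmp2 stood in both lists. Ivd encodes isovaleryl-CoA dehydrogenase of leucine breakdown and Pxmp2 a pore protein of peroxisomes.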

How the data were processed

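RNA from soleus muscle was measured in 8 libraries, 4 K15-SKO and 4 MyoCre, grouped by their titles. The authors deposited 1 table of values, taken here as FPKM; STAR, Cufflinks, Cuffdiff and mm10 were used per the submitters' processing notes, without versions. The unit was inferred, and the annotation, strand setting and scaling are unstated in the sources used here. On the scale log2(FPKM + 0.5), limma 3.58.1 in R 4.3.3 was run (trend, robust, genotype alone, two-sided, Benjamini-Hochberg adjustment). Of 24033 genes, the 12376 with a mean of at least 1 FPKM and a value above 0 in both genotypes were tested; 159 others were at 0 in a whole genotype. Depth was estimated from FPKM times length in 4820 single-transcript genes over 1000 bases. Coordinates and transcripts are from GENCODE vM21 (GRCm38, the mm10 assembly), in which 99.4% of the gene IDs were found. The fit was tested on simulated data. Members and lists were chosen with earlier results of these data known. Named are the 10 genes, Klf15, of each list the genes past the threshold or up to 4 with the smallest p, for 3 lists also the 3 highest, and the 5 genes most like Gstm7 and Gstk1; for marker lists 1 or 2 genes at most are printed, and 1 item is not reported here. Gclc, Gsr, Dpep1, Nqo1, Hmox1, Nfe2l2 and the neighbouring genes fall outside this rule. The labels give 4 samples a genotype but not whether each came from a separate mouse, so p-values measure the spread between these samples. The table held 0 columns of other samples.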

Additional observations from a re-analysis of the deposited data

Results flagged for a closer look

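The value of Gstm7 in K15-SKO replicate 4, 0.989 FPKM, lay far below the other 3 K15-SKO libraries, which had 1.69 to 1.81 FPKM. The gap to its neighbour took up more of the range of the group than Dixon's 95% limit for 4 values. It was 1 such value among 20 groups of 4 libraries, and chance gives 1 in 20. It rests on about 11 fragments, and without this library the log2 fold change of Gstm7 was -1.83.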

How the results depend on the processing

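Under 19 alternatives, 1 of them chosen after seeing the data, all log2 fold changes of the 10 genes that could be computed (187) moved by less than the spread between replicates. Gstm7 ranged from -2.25 to -1.72 and Gstk1 from -1.50 to -1.25, and each passed the threshold in 11 alternatives. The signs of Gstm4, Gstp1, Gstt1 and Gsto1 turned in some. The number of the 10 genes past the threshold, 2 as reported, was 0 with no filter on low values, with quantile normalization and without robust estimation. It was 1 with a minimum mean of 5 FPKM (Gstm7 then leaves the fit), with median-of-ratios scaling (Gstk1), and without both MyoCre replicate 2 and K15-SKO replicate 3 (Gstm7). It was 3 with library weights, which adds Gstm1. Leaving out 1 library gave 0 to 2: 0 without K15-SKO replicate 3 or MyoCre replicate 1 or 3, and 1 without K15-SKO replicate 1. Over all genes, the 12 lower genes became 0 with no filter or quantile normalization, 3 with median-of-ratios scaling or without robust estimation, 83 (and 8 higher) with library weights, 23 (and 46 higher) with the genes at 0 in a whole genotype kept, which also adds 1 glutathione gene, Dpep1, and 0 to 14 (and 0 to 1 higher) without 1 library. The replicate block gave 24 lower genes and the same number of the 10, 2; same-numbered libraries correlated at 0.15, 0.35, 0.02 and 0.33 after removing genotype means, so the numbers do not establish pairs. The causes were not tested. Depth limits Gstm7, Gstm4 and Gstt1 most.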
